A study of Homo sapiens with 4 samples.

Results

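The CCAAT/enhancer-binding proteins, or C/EBP factors, were compared by RNA-Seq between MDA-MB-231, a triple-negative human breast cancer cell line, and LM2-4175, a derivative of it with higher metastasis to the lung. Members were the genes of the deposited expression table named CEBPA, CEBPB, CEBPD, CEBPE, CEBPG or CEBPZ, which gave 6 genes out of 57815. Both cell lines were untreated and grown in the same medium with serum, and LM2-4175 was isolated from MDA-MB-231. There were 2 libraries for each cell line and 4 in all, with no label saying that they came from separate cultures, and the table combined the libraries of a cell line in 1 value with a lower and an upper bound. No value per library was therefore seen, no replicate error or p-value could be given, and a difference stands for 1 pair of pooled values.

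C/EBP factors are transcription factors of the basic leucine zipper (bZIP) class, which bind DNA as dimers with each other or with other bZIP proteins. CEBPB and CEBPD are known for the induction of inflammatory and acute-phase genes downstream of interleukin 1 and interleukin 6, and CEBPB also acts in mammary epithelium. CEBPA and CEBPE are known from fat, liver and myeloid differentiation, and CEBPG is a short member without a strong activation domain that pairs with ATF4 and other members. CEBPZ carries the family name but is not a bZIP protein: it is related to a yeast nucleolar protein of ribosome assembly. Protein levels and binding of these factors to DNA were not measured here.

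The DNA letters that C/EBP factors read are shown first, because some of the genes described further on hold them near their start sites. RefSeq windows from 250 bases before to 50 bases after each annotated start were searched on both strands for TTGCNNAA (reverse complement TTNNGCAA), a form of the C/EBP recognition sequence, and for TTGCATCA (reverse complement TGATGCAA), the element read by dimers of ATF4 with a C/EBP protein. Among 35116 windows of human genes, 10.5% held the first and 0.866% the second. Counted by gene, with a match in any window of the gene, the shares were 12.7% and 1.08% of 27305 genes. Windows were found for 5 of the 6 C/EBP genes, and none of them held TTGCNNAA. The window at the second annotated start of CEBPG held TGATGCAA, beginning 42 bases before that start and in an intron of the gene models that begin further upstream. Of 14 inflammatory genes with a window, 7 held TTGCNNAA, namely CXCL2, IL1B, IL6, LCN2, PTGS2, PTX3 and SAA4. One of 15 amino acid response genes with a window, CHAC1, held TTGCATCA. The matches in CEBPG, CHAC1 and the first 6 inflammatory genes are printed 5′ to 3′ on the strand of the gene with 10 bases on each side, and the capitals mark the motif.
CEBPG, chr19:33864967-33864994 of GRCh37, plus strand: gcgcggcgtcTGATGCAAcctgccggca
CHAC1, chr15:41245450-41245477, plus strand: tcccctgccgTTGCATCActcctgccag
IL6, chr7:22766654-22766681, plus strand: ggacgtcacaTTGCACAAtcttaataag
IL1B, chr2:113594554-113594581, minus strand: ggtgatacatTTGCAAAAtgtgtcatag
CXCL2, chr4:74965083-74965110, minus strand: ttggcgggagTTACGCAAgacagtcaga
PTGS2, chr1:186649671-186649698, minus strand: cccaccgggcTTACGCAAtttttttaag
LCN2, chr9:130911579-130911606, plus strand: tccctctgtcTTGCCCAAtcctgaccag
PTX3, chr3:157154473-157154500, plus strand: cggtttaataTTGTGCAActtccacatt
The matches in IL1B, CXCL2 and PTX3 lie outside the annotated gene, those in IL6, PTGS2 and LCN2 lie in introns of longer gene models, and that in CHAC1 lies in an exon of one. In LCN2 the last 4 letters of the match are shared with a CCAAT box, the motif that named the family and that 34.6% of the windows held. A match describes letters in a window and is neither a shown binding site nor a cause of a change in expression.

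Levels are given as FPKM, the fragments of a gene normalized to its transcript length and to the size of the library, so that levels can be compared between genes. Changes are given as the log2 ratio of FPKM + 1, LM2-4175 over MDA-MB-231, on which genes with low values show less than their full change. Genes with a mean of at least 0.5 FPKM were tested, and the call was higher or lower where this ratio reached 1.5-fold and the upper bound of the lower value stayed below the lower bound of the higher value. This applied to 13911 genes, of which 4.67% were called higher and 4.61% lower, 9.27% together. Of the 6 C/EBP genes, 4 passed the filter on low values: CEBPB and CEBPG were called higher, and CEBPD and CEBPZ were not called. The plot of all genes tested places these 4 among the others.

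**Figure D1:**
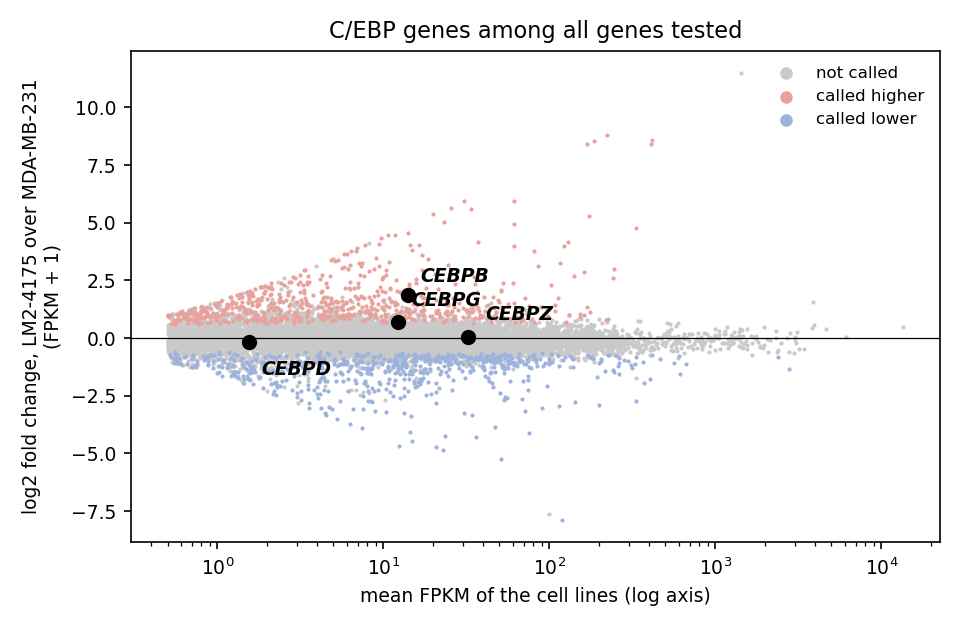
Mean FPKM of the cell lines (horizontal, log axis) against the log2 fold change of LM2-4175 over MDA-MB-231 on the scale of FPKM + 1 (vertical) for 13911 genes tested, with genes called higher in red, called lower in blue and not called in grey, and the 4 C/EBP genes that passed the filter in black. CEBPB lies at 1.89 and CEBPG at 0.68, while CEBPZ and CEBPD lie near 0.

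CEBPB, the inducible member tied to interleukin 6 and interleukin 1 signalling, had the largest log2 fold change on the scale of FPKM + 1 among the 4 members tested. MDA-MB-231 gave 5.45 FPKM (bounds 3.86 to 7.03), and LM2-4175 gave 22.8 FPKM (17.3 to 28.3). The ranges of the cell lines were far apart, and the LM2-4175 value was the higher one. The ratio of the values was 4.19, and the bounds allow ratios from 2.46 to 7.33. On the scale of FPKM + 1, the log2 fold change was 1.89. A larger log2 fold change was found in 159 of the 13911 genes tested (1.14%). In MDA-MB-231 the level of CEBPB was above that of 33.8% of the genes tested, and in LM2-4175 above that of 68.3%. In bulk RNA, fewer cells that express a gene and less RNA per cell cannot be told apart. CEBPB (ENSG00000172216) is a gene of the plus strand of chromosome 20, from 48807367 to 48809205 in the GENCODE 44 annotation of GRCh37, and an antisense RNA gene, CEBPB-AS1, overlaps 12.6% of its exon bases. Because counting by strand is not stated, reads of the antisense RNA could not be told apart from reads of CEBPB there, and the antisense gene has no value of its own among those used here.

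CEBPG, the short member that pairs with ATF4, showed a smaller difference. Its level was 9.21 FPKM (bounds 6.97 to 11.5) for MDA-MB-231, against 15.4 FPKM (11.8 to 18.97) for LM2-4175. The bounds were only just apart, and LM2-4175 was the higher line. LM2-4175 thus had 1.67 times the FPKM, with ratios from 1.03 to 2.72 within the bounds. On the scale of FPKM + 1 its log2 fold change was 0.68, and 8.37% of the genes tested had a larger log2 fold change. Had the threshold been 2-fold, CEBPG would not have been called. The gene (ENSG00000153879) lies on chromosome 19 from 33864591 to 33873592 on the plus strand, and its exons are free of overlap with those of other genes.

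CEBPD, which like CEBPB is known as an immediate responder to inflammatory cytokines, stayed low in both cell lines. MDA-MB-231 gave 1.69 FPKM (1.10 to 2.28), and LM2-4175 gave 1.40 FPKM (0.891 to 1.90). The ranges overlap over most of their length, at a ratio of 0.825 in FPKM and a log2 fold change of -0.17 on the scale of FPKM + 1. Ratios from 0.390 to 1.72 fit within the bounds, so a difference inside that interval was not detectable at this precision. CEBPD (ENSG00000221869) lies on chromosome 8 from 48649475 to 48650726 on the minus strand in GENCODE 44, while the interval of the table, 48649471 to 48651648, is longer. Its level exceeded that of 16.4% of the genes tested in MDA-MB-231 and 12.8% in LM2-4175.

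CEBPZ, the nucleolar protein gene, had the highest level of the 6 in both cell lines and nearly the same value in each. The values were 31.8 FPKM (18.5 to 45.2) for MDA-MB-231, against 33.2 FPKM (19.1 to 47.2) for LM2-4175. This made a ratio of 1.04 in FPKM and 0.06 as log2 fold change of FPKM + 1. Its upper bounds lay 41.9% and 42.3% above the value, against 23.4% to 29.1% for CEBPB and CEBPG and medians of 38.6% and 38.1% over all genes tested, and they allow ratios from 0.424 to 2.55. CEBPZ (ENSG00000115816) lies on chromosome 2 from 37428755 to 37458739 on the minus strand, and genes on the opposite strand overlap 21.6% of its exon bases. One of these is CEBPZOS, named AC007390.5 in the table, with 24.8 FPKM in MDA-MB-231 and 18.7 FPKM in LM2-4175 and no call. The table places CEBPZ itself in a longer interval, 37394963 to 37551951, that also holds neighbouring genes.

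CEBPE and CEBPA did not reach the filter. CEBPE, a factor of late neutrophil maturation (ENSG00000092067, chromosome 14, 23586245 to 23589465, minus strand), had 0.0326 FPKM (0 to 0.0879) for MDA-MB-231, against 0.00682 FPKM (0 to 0.0400) for LM2-4175. Both ranges include 0, so a difference was not detectable at this depth. CEBPA (ENSG00000245848, chromosome 19, 33790840 to 33793440, minus strand) is listed at 0 with bounds of 0 in both cell lines and a status of OK. It is 1 of 2452 genes listed so among 19398 protein-coding genes (12.6%). An exact 0 can also stand for a locus that was not quantified. EEF1A1, a translation factor gene used by all cells, stands at 0 with the status HIDATA. By this status Cuffdiff marks loci that it did not quantify for their number of fragments. CEBPA does not carry it, so EEF1A1 does not show its 0 to be such a failure. The read counts behind single genes are unknown, so CEBPA is only said to be listed at 0. Antisense RNA genes, also listed at 0, overlap 43.9% of its exon bases.

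**Figure D2:**
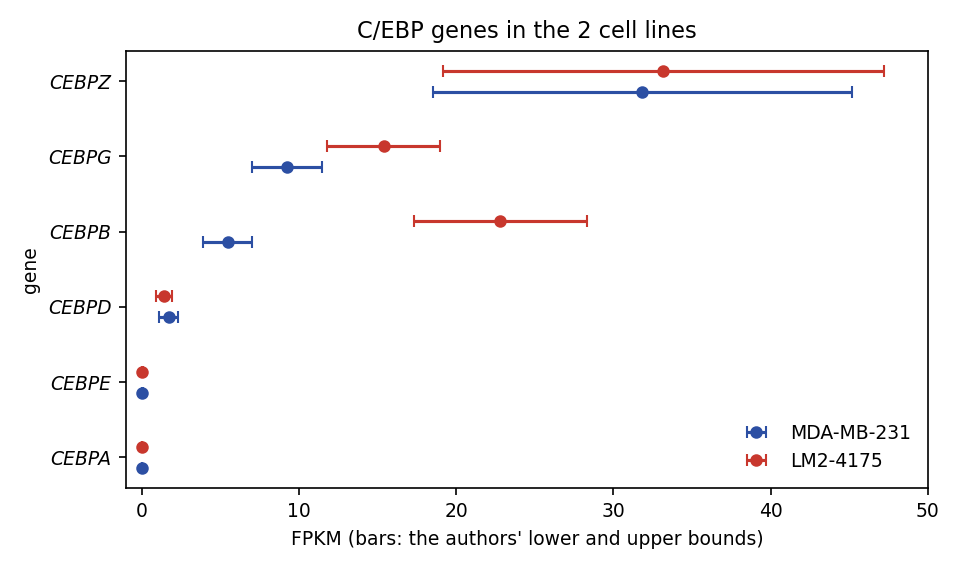
FPKM (horizontal) of the 6 C/EBP genes (vertical) in MDA-MB-231 (blue) and LM2-4175 (red), 1 pooled value of 2 libraries per cell line, with bars from the authors' lower to upper bound. The bars are apart for CEBPB and narrowly for CEBPG, and overlap for CEBPZ and CEBPD, while CEBPE and CEBPA lie at or close to 0.

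The order of the bZIP members differed between the cell lines. In MDA-MB-231 CEBPG was above CEBPB, with a ratio of CEBPB to CEBPG of 0.591, and in LM2-4175 CEBPB was above CEBPG, with a ratio of 1.48. Within each cell line the bounds of CEBPB and CEBPG overlapped, in MDA-MB-231 by a small margin (lower bound of CEBPG 6.97, upper bound of CEBPB 7.03), so neither order exceeds the bounds. CEBPZ was above CEBPG with bounds apart in MDA-MB-231, and overlapped with CEBPB in LM2-4175. CEBPD lay below the next higher member and above CEBPE with bounds apart in both cell lines. The 5 bZIP members added up to 16.4 FPKM for MDA-MB-231 and 39.6 FPKM for LM2-4175. CEBPB made up 33.2% of it for MDA-MB-231 and 57.6% for LM2-4175, CEBPG 56.2% and 38.9%, and CEBPD 10.3% and 3.53%.

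The genes around each C/EBP gene were examined next, to describe the changes in the surroundings of each member. Of 35 genes in the table within 500 kb of CEBPB, 12 were tested, with a median log2 fold change of -0.13 and a range of -0.97 to 0.50. None of them was called higher. SNAI1, which encodes a repressor of E-cadherin, was the 1 gene called, going from 2.59 FPKM in MDA-MB-231 to 0.836 FPKM in LM2-4175. CEBPG lies 71.2 kb from CEBPA, and 7 genes within 500 kb of CEBPG were tested. Their median log2 fold change was -0.17, the highest value was 0.31, and the 1 gene called was LRP3, a receptor gene of the LDL receptor family, which fell from 5.58 to 1.43 FPKM. CEBPB and CEBPG were already called higher, and each had a larger log2 fold change than every tested neighbour. The median of all genes tested was -0.04. Of all genes tested, 1.14% and 8.37% had larger log2 fold changes, so standing above these neighbours is no test of the surroundings. Around CEBPZ 9 genes were tested with a median of -0.08, and QPCT, which encodes glutaminyl cyclase, was called higher with 1.15 and 15.2 FPKM. None of the 4 genes tested around CEBPD and of the 24 around CEBPE was called, by the rule of fold and bounds, which gives no p-value. Among all genes tested 9.27% were called, so such small counts of calls say little about the surroundings of a member.

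**Figure D3:**
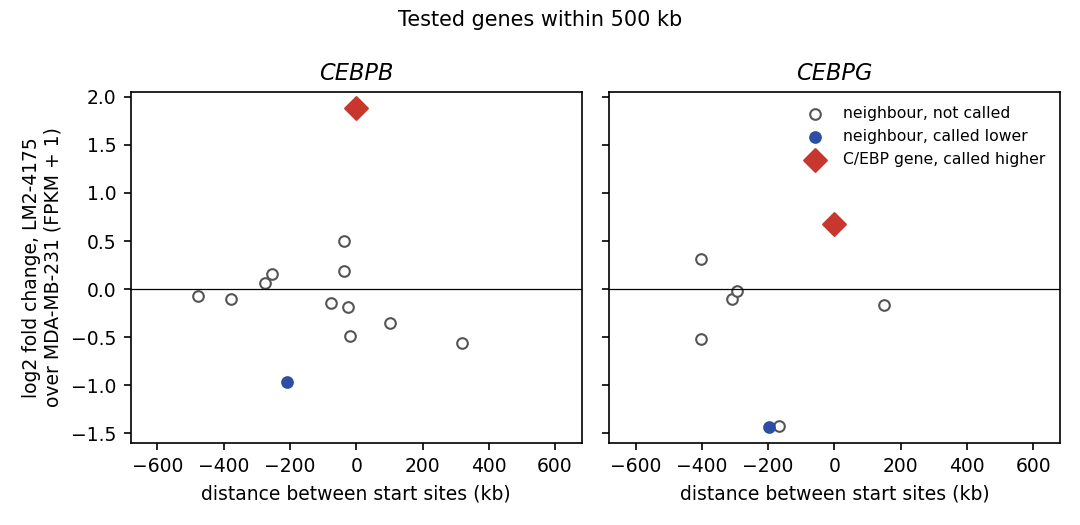
Distance between start sites in kb (horizontal) against the log2 fold change on the scale of FPKM + 1 (vertical) for the genes tested within 500 kb of CEBPB (left) and CEBPG (right). The C/EBP gene is the red diamond, neighbours called lower are filled blue and neighbours not called are open. Each neighbour lies below the diamond, at most at 0.50 around CEBPB and 0.31 around CEBPG.

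Partners and regulators of the C/EBP factors were mixed in direction. Of 19 genes of this list, all tested, 3 were called higher and 1 lower, which makes 21.1% called against 9.27% of all genes tested. The median log2 fold change was -0.12 against -0.04 for all genes tested. ATF4, the stress-induced bZIP partner of CEBPG and CEBPB, had 162.5 FPKM (125.5 to 199.5) for MDA-MB-231, against 278.5 FPKM (215.2 to 341.7) for LM2-4175 and was called higher (log2 fold change 0.77). TRIB1, a pseudokinase that marks C/EBP proteins for degradation, was called higher with 3.49 and 7.95 FPKM, and so was JUN, at a log2 fold change of 0.65. FOS, the AP-1 subunit that pairs with JUN, fell from 17.6 FPKM (12.6 to 22.7) to 2.99 FPKM (1.84 to 4.14). FOSL1 and FOSL2 had the highest levels among those not called, with FOSL1 at 322.8 FPKM in MDA-MB-231 and 378.3 FPKM in LM2-4175. DDIT3, also known as CHOP and in older usage as C/EBP zeta, is a different gene from CEBPZ. It was added by name after its values were seen, with 16.0 and 24.4 FPKM, a log2 fold change of 0.58 and no call.

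Signalling genes upstream of the factors were called in 2 of 18 cases, which with 11.1% is near the 9.27% of all genes tested. The interleukin 6 receptor gene IL6R was called higher from 0.340 FPKM (0 to 0.712) to 1.63 FPKM (0.961 to 2.30). The interleukin 1 receptor gene IL1R1 was called lower from 6.95 FPKM (4.58 to 9.32) to 3.06 FPKM, with the bounds apart. The shared interleukin 6 receptor chain IL6ST (70.6 and 82.8 FPKM) and the NF-kB subunit RELA (61.2 and 53.7 FPKM) were not called. The median log2 fold change of the list was -0.15.

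The list of inflammatory and acute-phase genes known as targets of CEBPB and CEBPD had the largest median log2 fold change of the lists examined. Of 22 genes of the list in the table, 17 were tested, of which 13 were called higher and none lower, against 4.67% called higher among all genes tested. Their median log2 fold change was 3.18. This list was written with large increases of several of its members already known, so its count is a description. CSF3, the granulocyte growth factor gene, went from 1.15 to 831.1 FPKM, IL1B from 1.43 to 819.1 FPKM, IL8, a neutrophil attractant, from 7.75 to 338.2 FPKM, and PTGS2, the inducible cyclooxygenase, from 0.455 to 46.0 FPKM. All 4 of these had bounds apart, and their ratios of 43.7 to 722.4 exceeded the 4.19 of CEBPB. The acute-phase genes SAA1 and SAA2, which are near-identical copies whose reads can be split between them, had the smaller log2 fold changes of 1.45 and 1.12. PTX3 (37.2 and 47.2 FPKM) and CP (2.46 and 3.09 FPKM) were not called, nor was HP (0.553 and 0.635 FPKM). The fourth without a call was CCL2, the 1 gene tested with the lower value in LM2-4175, with 2.73 and 1.05 FPKM.
The genes with a printed C/EBP match had values on both sides of the call. IL6 (12.5 and 245.2 FPKM), IL1B, CXCL2 (4.03 and 44.7 FPKM), PTGS2 and LCN2 (1.03 and 5.03 FPKM) were called higher, and PTX3 was not. CSF2, CXCL1, ICAM1 and IL8 had a window without TTGCNNAA and were called higher as well, with log2 fold changes of 1.54 to 5.28. Of the tested inflammatory genes with a match, only PTX3 had no call, and SAA4, which also held a match, did not pass the filter. A link between the match and the change was not tested.

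**Figure D4:**
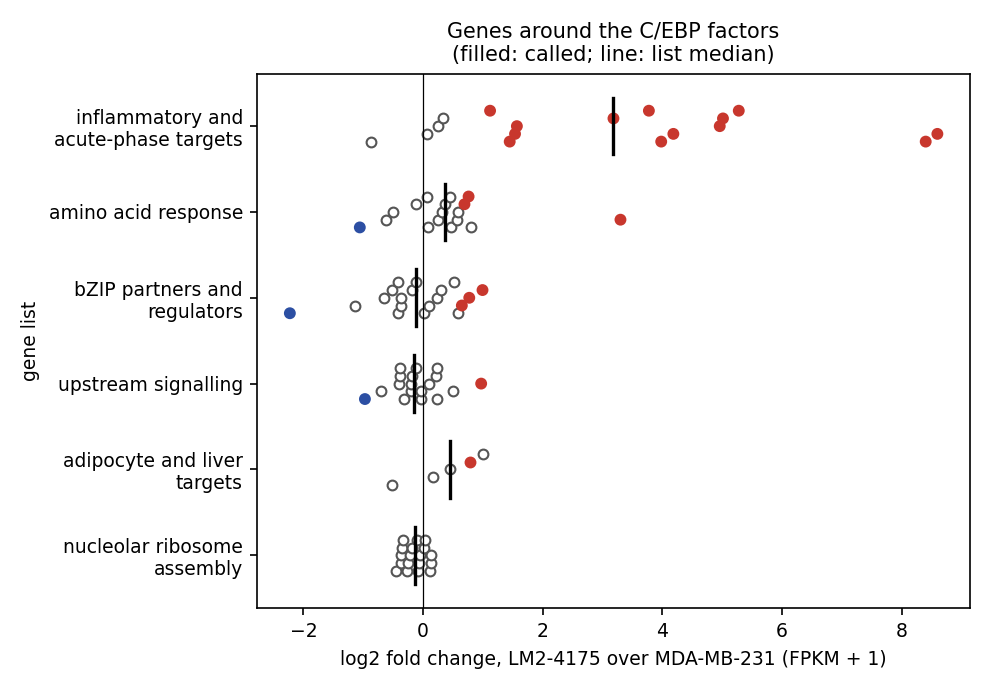
Log2 fold change of LM2-4175 over MDA-MB-231 on the scale of FPKM + 1 (horizontal) for the tested genes of 6 lists around the C/EBP factors (vertical), with filled points for genes called higher (red) or lower (blue), open points for genes not called and a line at the list's median. The inflammatory and acute-phase genes reach 8.60 with a median of 3.18, while the nucleolar genes stay between -0.46 and 0.13.

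Genes of the amino acid response, which ATF4 induces together with C/EBP partners when amino acids are short, showed 3 calls higher and 1 lower of 17 tested (23.5%, against 9.27% of all genes tested). Their median log2 fold change was 0.37, against -0.04. PHGDH, the entry enzyme of serine synthesis, had 1.18 FPKM (0.692 to 1.67) for MDA-MB-231, against 20.5 FPKM (15.4 to 25.6) for LM2-4175. PSAT1, the next enzyme of that pathway, was called higher with 33.7 and 55.1 FPKM, and ASNS, asparagine synthetase, with 12.8 and 22.4 FPKM. SLC7A5, a transporter of large neutral amino acids, was called lower with 113.1 and 53.9 FPKM, while its heavy chain SLC3A2 (88.2 and 80.9 FPKM) and the serine-converting enzyme SHMT2 (122.6 and 182.7 FPKM) were not called. CHAC1, which holds TTGCATCA near its start like CEBPG, had 1.73 and 3.74 FPKM and no call. PHGDH, SESN2 and CBS were the 3 of 15 genes with a window that held TTGCNNAA, against 12.7% of all genes with a window. Of the 17 genes, 13 had a log2 fold change above 0, called or not, as did 45.5% of all genes tested.

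Target genes of CEBPA and CEBPE were mostly not measurable above the filter. Of 13 fat and liver genes 5 were tested and 1, the fatty acid carrier gene FABP4, was called higher, from 0.132 FPKM (0 to 0.359) to 0.960 FPKM, with a lower bound of 0.414. This single call of 5 stands beside 9.27% called among all genes tested. PPARG, the regulator of fat cell differentiation, had 30.9 and 42.5 FPKM and SCD, a fatty acid desaturase, 220.5 and 154.3 FPKM, neither with a call. Of 12 neutrophil granule and myeloid genes, 5 were listed at 0 in both cell lines and only CD14 passed the filter, with 1.17 and 1.75 FPKM and no call. For CEBPZ, a list of 18 nucleolar genes of ribosome assembly was examined, chosen by function and not by position. All 18 were tested and none was called by fold and bounds. By the fold alone none passed either, against 22.1% among all genes tested. Their log2 fold changes ran from -0.46 to 0.13 with a median of -0.14, and the most abundant were NPM1 (1800 and 1738 FPKM) and NCL (535.7 and 548.1 FPKM).

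The study's regulatory network links CEBPB to 12 and CEBPG to 81 target genes through motifs in active promoters and enhancers. The study built this network with the RNA-Seq of the same cell lines, so the counts of its targets are no independent evidence of a direction. The smallest absolute log2 fold change was 0.50 among the targets of CEBPB and 0.39 among those of CEBPG. All 12 targets of CEBPB had a higher FPKM in LM2-4175, with log2 fold changes up to 3.62, and 8 were called higher (4.67% of all genes tested were). MSI2, an RNA-binding protein gene, PHACTR1, an actin regulator gene, and SASH1, a scaffold protein gene, changed most, SASH1 from 2.96 to 12.4 FPKM. The targets of CEBPG went both ways, with 25 called higher and 15 lower of 81, against 4.67% and 4.61% of all genes tested. AMPH, the gene of the membrane-bending protein amphiphysin (0.0146 and 6.73 FPKM), DNER, a neuronal ligand of Notch (0.599 and 14.2 FPKM), and CSF3 were the largest increases. MATN2, a matrix protein gene (56.5 and 4.98 FPKM), PLEKHA7, a junction protein gene (19.5 and 1.20 FPKM), and SUSD3 (16.7 and 0.981 FPKM) were the largest decreases. The target lists of CEBPB and CEBPG share 0 genes, and CSF3 is the 1 gene in both the CEBPG list and the inflammatory list.

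**Figure D5:**
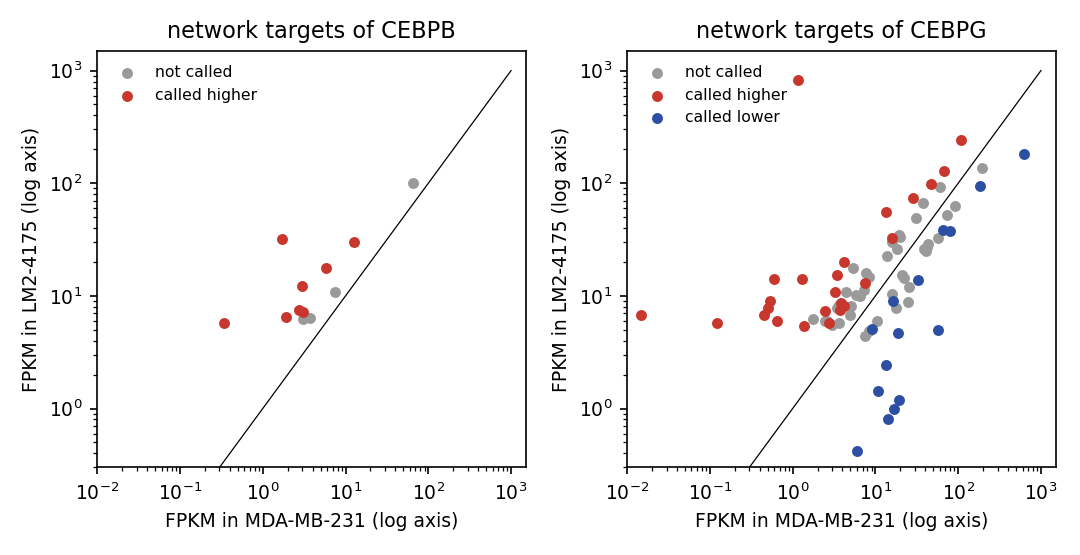
FPKM in MDA-MB-231 (horizontal, log axis) against FPKM in LM2-4175 (vertical, log axis) for the network targets of CEBPB (left, 12 genes) and CEBPG (right, 81 genes), with points coloured by call and a line of equal values. The CEBPB targets all lie above the line, and the CEBPG targets lie on both sides of it.

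Among 12082 protein-coding genes tested, the genes whose levels lay closest to those of each member were found by the Euclidean distance of the 2 log2 values, 1 per cell line. Closest to CEBPB was RASD1 (5.74 and 22.8 FPKM, distance 0.07), followed by PARP8 (5.49 and 20.7 FPKM, distance 0.13). For CEBPG these were ASS1 (9.13 and 14.8 FPKM, distance 0.05) and CTTNBP2NL (9.34 and 14.7 FPKM, distance 0.06). CEBPD had CNFN and ATP7B, and CEBPZ had GDE1 and SREK1, all within 0.01. Likeness over so few values is a description of level alone.

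Markers of the cell type were as follows. The mesenchymal marker VIM was high in both cell lines (1355 and 1768 FPKM), and the hormone receptor genes ESR1 and PGR had at most 0.0331 FPKM, while ERBB2 had 35.0 and 22.8 FPKM. The epithelial genes EPCAM, KRT8 and KRT18 were called lower in LM2-4175, with KRT8 at 625.7 and 180.2 FPKM, and CDH1 was not called. The part of these cell state genes in the changes of CEBPB and CEBPG was not tested. Of 12 white blood cell genes 3 passed the filter, namely CD68, CD14 and CSF1R, and none was called. Their list summed to 111.2 and 181.6 FPKM, of which CD68, a lysosomal gene also active outside white blood cells, gave 107.0 and 178.9 FPKM. Of the defining genes, CD3E was listed at 0 in both cell lines, SPI1 had at most 0.0256 FPKM and PTPRC at most 0.0767 FPKM.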

How the data were processed

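Total RNA of both cell lines was sequenced with paired reads. According to the study's methods and the submitters' processing notes, reads were aligned to hg19 with TopHat2 and GENCODE genes were quantified with Cufflinks and Cuffdiff. The deposited values are FPKM computed by the authors, 1 per gene and cell line over its 2 libraries combined, each between lower and upper bounds on the same scale and with a status of the estimate. Cuffdiff's version, its scaling of library sizes, its strand setting and what the bounds cover are not given in the sources used here, and read counts behind single genes are unknown, so precision was read from the bounds. The FPKM summed to 632944 in MDA-MB-231 and 598147 in LM2-4175. The upper bound lay a median of 38.6% and 38.1% above the FPKM of the genes tested.

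Genes whose status was OK for both values and whose mean reached 0.5 FPKM were tested on log2(FPKM + 1) and called at 1.5-fold with bounds apart. The study's test over libraries could not be run on 1 value per cell line. The members and lists were chosen with earlier results of these data known. All 6 members are named, with up to 4 genes called by size of change and the 2 most abundant not called of each list, the 3 largest changes each way of the study's network targets, the genes called near a member and the 2 genes nearest in level. Markers and genes with a promoter window were named besides, and SAA1, SAA2, HP, CCL2 and DDIT3 were named after their values were seen.

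Positions came from GENCODE 44 on GRCh37, to which 55535 of 57815 genes were matched by Ensembl ID. Promoter windows of RefSeq on GRCh38.p14, without those of chromosome 8, were placed on GRCh37 by exact match. Python 3.11.15, NumPy 2.4.6, pandas 2.3.3 and Matplotlib 3.10.9 were used. The call was tried on simulated data with noise set from the deposited bounds, so spread beyond those bounds was not covered. Alternatives covered the pseudocount, the filter, the fold, the bounds and the scaling.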

Additional observations from a re-analysis of the deposited data

How the results depend on the processing

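CEBPB was called higher under the 9 alternatives tried, with log2 fold changes from 1.89 to 2.07, and CEBPD, CEBPZ and CEBPE were called under none of those that tested them. CEBPG had log2 fold changes of 0.68 to 0.78 and was called under all but the fold threshold of 2, where its value of 0.68 falls short. All genes called numbered 649 higher and 641 lower. They changed to 321 higher at a mean of at least 5 FPKM, to 403 lower at a fold of 2, and to 1434 higher and 1640 lower by the fold alone. At a fold of 2 the bZIP partners had 1 gene called, the upstream genes 0, the amino acid response genes 2 and the fat and liver genes 0, and the neighbours 1 at CEBPA and 0 at CEBPB. At a mean of at least 5 FPKM the upstream genes had 1 called, the fat and liver genes 0, and the neighbours 1 at CEBPA and 0 at CEBPB and CEBPG. By the fold alone 7 amino acid response genes, 2 fat and liver genes, 2 white blood cell genes, 68 network targets of CEBPG, and 2 neighbours each of CEBPE and CEBPG passed. These changes follow from fewer genes tested, a stricter fold or the dropped bounds. The other 184 of 206 values kept their direction and call, or moved by at most 1.5 times for counts. No paired analysis was possible because the columns carry no replicate numbers, and no library could be left out of the pooled values. The bounds limit what could be seen: they allow ratios from 0.390 to 1.72 for CEBPD and from 0.424 to 2.55 for CEBPZ.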
